A study of Rattus norvegicus with 2 samples.

Results

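Checkpoint receptors and B7 ligands were described as a set of 7 genes of 26976 gene symbols in a rat single-cell count matrix, chosen by symbol: the receptors Pdcd1, Lag3, Tigit and Havcr2, and the ligands Cd274, Cd80 and Cd86. The cells were CD45+ leukocytes sorted from left ventricles of wt rats with a myocardial infarction, infarct and surrounding tissue together, on day 7. The study had 2 groups with 1 sample each, infarction alone (MI) and infarction with a PUR-hAESC patch (MI+PUR-hAESC), and both arrived in 1 matrix of 2 libraries marked by barcode suffix. No source ties a suffix to a group, so libraries 1 and 2 are given side by side and no effect of the patch is described. With 1 library of each kind there is no replicate and no test, the number of animals behind a library is not given in the sources used here, and intervals cover counting error only.

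Immune checkpoints are pairs of receptors and ligands that raise the threshold of T cell activation. CD80 and CD86 on antigen-presenting cells engage CD28, which costimulates, and CTLA-4, which restrains; PD-L1, the product of Cd274, engages PD-1, the product of Pdcd1. LAG-3, a relative of CD4, acts in T and NK cells, TIGIT competes with the activating receptor CD226 for ligands of the nectin family, and TIM-3, the product of Havcr2, is found on stimulated T cells and on dendritic cells.

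The libraries held 14283 and 15666 barcodes with 72506643 and 82802439 UMIs (unique molecular identifiers, 1 for each captured transcript), of which 13334 and 14434 cells were kept; 71 barcode sequences occurred in both. Cells were assigned to types by marker transcripts, and 1354 mixed cells and 2406 with too few markers were set aside. Mixed cells had markers of more than 1 lineage or, in 528 cells, T or NK markers with class II. A UMI of Ptprc, which encodes CD45, was found in 90.9% and 92.9% of kept cells. Among 127 and 45 endothelial or fibroblast cells that share was 12.6% and 20%, so some cells outside the sorted population were present. The libraries differed in makeup: T cells with Rag1, Rag2, Dntt or Ptcra UMIs, the transcripts of developing T cells, numbered 1 in library 1 and 707 in library 2, and neutrophils made up 27.9% and 10.9% of kept cells. Levels below are UMIs of a gene for every 1000000 UMIs (CPM), summed over the cells of a type in 1 library, for 13 types with at least 50 cells in each library, and the order of types is by the mean of both libraries. In such sums, fewer cells that express a gene and less RNA per cell cannot be told apart.

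Pdcd1, which encodes the inhibitory receptor PD-1, had 0 UMIs in all 29949 barcodes. Among 2190 and 4300 T cells that count allows a level of up to 0.253 and 0.137 CPM (3 UMIs of the total), and a share of cells with a UMI of up to 0.137% and 0.0698%. Of all 26976 symbols, 7880 (29.2%) had 0 UMIs. The 0 is a count of captured transcripts at this depth and not a statement that the receptor was absent. The gene annotation used for counting is not given in the sources used here. Transcripts that the annotation missed thus cannot be told from no expression, and the limits above hold only if Pdcd1 transcripts were counted. The other 6 genes had between 981 and 5960 UMIs in the kept cells of a library.

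**Figure D1:**
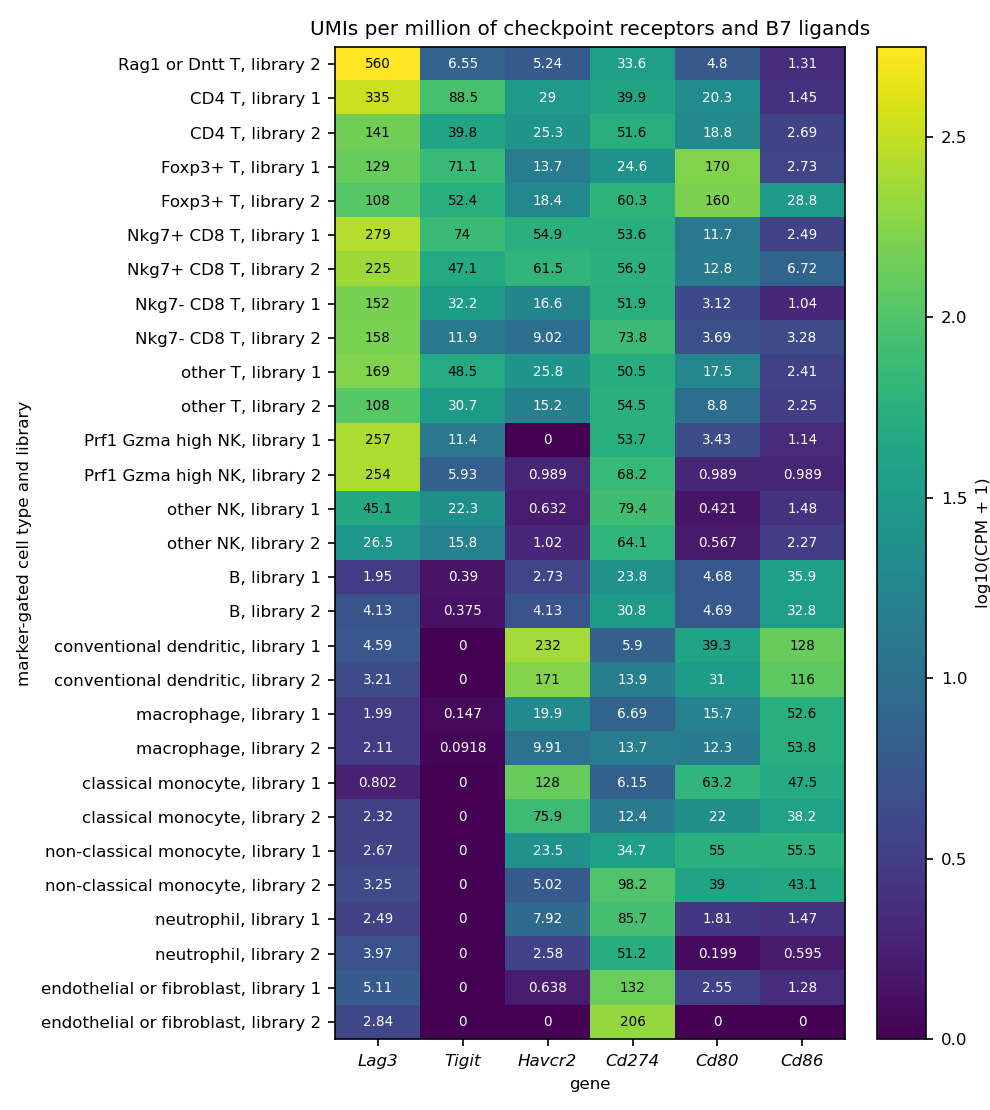
Level of the 6 detected genes (columns, in CPM, printed in each cell and coloured as log10(CPM + 1)) by cell type and library (rows). Lag3 and Tigit are highest in T and NK cells, Havcr2 in dendritic cells, classical monocytes and Nkg7+ CD8 T cells, Cd80 in Foxp3+ T cells and monocytes, Cd86 in antigen-presenting cells, and Cd274 is low in macrophages, dendritic cells and classical monocytes.

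Lag3, an inhibitory receptor that binds class II molecules, was highest in T and NK cells. It stood at 257 and 254 CPM in libraries 1 and 2 in NK cells rich in Prf1 and Gzma, which encode perforin and granzyme A. CD8 T cells with Nkg7, a cytotoxic granule gene, held 279 and 225 CPM, and CD4 T cells 335 and 141 CPM. Ranges of these 3 types overlapped, so their order is not resolved. CD8 T cells without Nkg7 followed at 152 and 158 CPM, other T cells at 169 and 108 CPM (37.2 and 27.4 CPM with clusters in place of marker gates, level with the remaining NK cells), and Foxp3+ T cells at 129 and 107.5 CPM. With marker gates a gap separated these from the remaining NK cells, at 45.1 and 26.5 CPM, and the B cell and myeloid types among the 13 lay below 5 CPM. Plasmacytoid dendritic cells, with 31 cells in each library too few for the 13 types, had 93.2 and 37.7 CPM, from 29 and 13 UMIs. After each cell was thinned to 1500 UMIs, a Lag3 UMI was found in 29.8% and 22.7% of Nkg7+ CD8 T cells (62.7% and 50.2% unthinned, median depth 4587 and 5426 UMIs). The same share was 0.432% and 0.826% in neutrophils, which should lack the gene and had median depths of 2248 and 2563 UMIs.

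The highest Lag3 level of any type belonged to the Rag1 or Dntt T cells of library 2, at 560.5 CPM (95% interval 530.3 to 592). A Lag3 UMI was present at 1500 UMIs in 64.4% of the 491 cells that deep, with 216 shallower cells left out, at 1000 UMIs in 55.1%, and unthinned in 80.2% of all 707 (median 1712 UMIs). No cell held more than 9. The 108 cells with at least 3 summed UMIs of Mki67, Top2a, Birc5 and Cdk1, called dividing, had 286 CPM (254 to 322). The 599 other cells of this type had 770 CPM (723 to 819). Median depths were 7612 UMIs in dividing cells and 1637 UMIs in the others, with 284 and 1000 Lag3 UMIs in all. The lower level of dividing cells is thus relative to the UMIs of deeper cells. The other receptors were low in the type as a whole, with Tigit at 6.55 and Havcr2 at 5.24 CPM. These cells alone supplied 21.5% of the Lag3 UMIs in the kept cells of library 2, against 35.4% from Nkg7+ CD8 T cells. Library 1 had a single cell of the kind, with 2 Lag3 UMIs.

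In CD4 T cells, Lag3 transcripts sat in few cells. Of 242 and 331 CD4 T cells, 31 and 19 held 5 or more Lag3 UMIs, and these carried 88.1% and 71.1% of the type's Lag3 UMIs, with up to 35 and 25 UMIs in a cell. In Nkg7+ CD8 T cells, cells with 5 or more UMIs carried a smaller share, 29.9% and 42.4%. In a clustering made without the 7 genes, CD4 T cells of the cluster led by Il17a, Tnfrsf4 and Il2ra (cluster 14) had 901 and 611 CPM of Lag3, those of the Nkg7+ CD8 cluster (cluster 2) 206 and 297 CPM, and those of the cluster led by Lef1 and S1pr1, genes of resting T cells (cluster 6), 9.82 and 9.21 CPM. The cluster 14 cells were 26.4% of CD4 T cells in library 1 and 13.9% in library 2, and the cluster 6 cells 41.3% and 67.1%.

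Cluster 14 also held most cells with a UMI of Foxp3, which encodes the defining transcription factor of regulatory T cells, and Lag3 was not highest in those. Its T cells with a Foxp3 UMI had 147 and 99.1 CPM of Lag3 (49 and 89 cells). Those with a UMI of Il17a, Scart1 or Il23r, genes of type 17 T cells, and none of Foxp3 had 67.5 CPM in library 1 (72 cells) and 0 UMIs in 28 cells of library 2. Those with neither had 713 and 492 CPM (142 and 144 cells). Ctla4, the inhibitory receptor for both B7 ligands, was also highest in the cells with neither, at 190.5 and 293 CPM, against 136 and 167 CPM in cells with a Foxp3 UMI. A Foxp3 UMI can be missed at these depths, so the cells with neither may include cells that express Foxp3.

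Tigit, an inhibitory receptor of T and NK cells, was led by CD4 T cells at 88.5 and 39.8 CPM, Foxp3+ T cells at 71.1 and 52.4 CPM, and Nkg7+ CD8 T cells at 74.0 and 47.1 CPM, with overlapping ranges. It was lower in Nkg7- CD8 T cells (32.2 and 11.9 CPM) and in NK cells, where the cells rich in Prf1 and Gzma had 11.4 and 5.93 CPM and the other NK cells 22.3 and 15.8 CPM. By CPM the order of the NK subsets was thus opposite to that for Lag3, from 10 and 6 Tigit UMIs in the cells rich in Prf1 and Gzma. The intervals of the subsets overlapped in library 1 (5.48 to 21.0 and 18.3 to 27.0 CPM) and were apart in library 2. In cluster 14, T cells with neither Foxp3 nor type 17 UMIs had 150 and 104 CPM, those with a Foxp3 UMI 90.7 and 57.4 CPM, and type 17 cells 2.11 and 5.04 CPM. No Tigit UMI was seen in 3725 and 1579 neutrophils, which allows a share of cells with a Tigit UMI of up to 0.0805% and 0.19% at median depths of 2248 and 2563 UMIs and sets no limit on cells that express it. Conventional dendritic cells and both monocyte types also had 0, and plasmacytoid dendritic cells had 2 and 4 UMIs in 31 cells each.

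**Figure D2:**
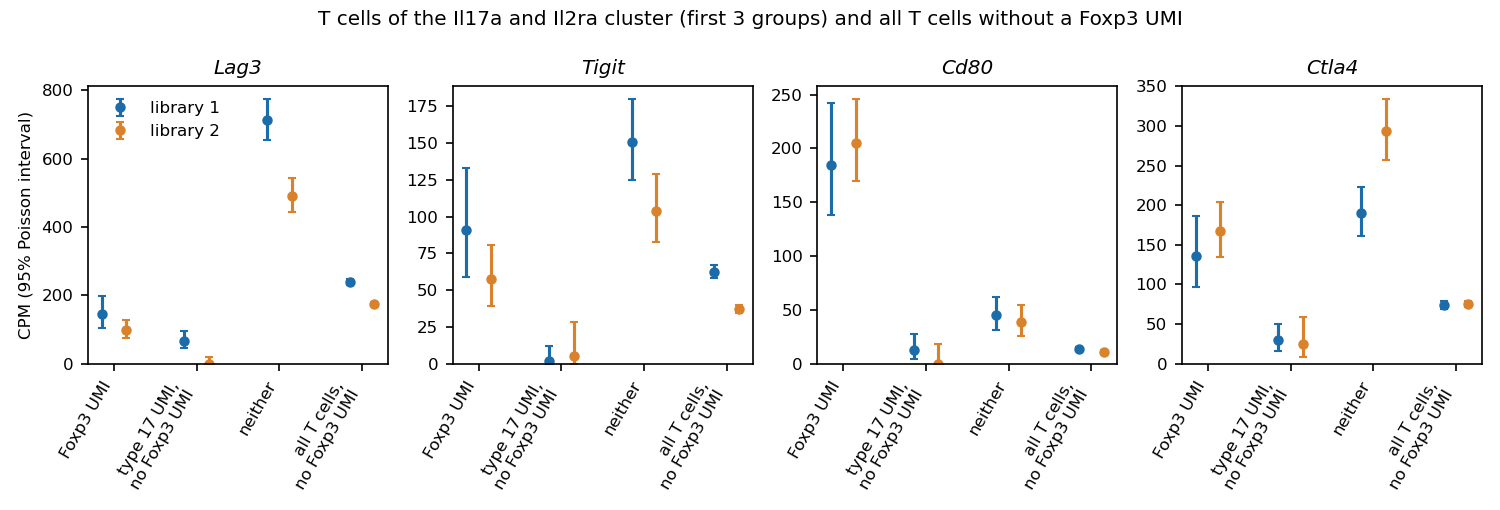
Level in CPM (points, with 95% Poisson intervals as bars) of Lag3, Tigit, Cd80 and Ctla4 in T cells of cluster 14, split by Foxp3 and type 17 UMIs, and in all T cells without a Foxp3 UMI, by library (colours). Lag3 and Tigit peak in the cells with neither, at 713 and 150 CPM in library 1, and Cd80 peaks in the cells with a Foxp3 UMI, at 185 and 205 CPM.

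Havcr2, which encodes TIM-3, had its highest levels in conventional dendritic cells and classical monocytes. Conventional dendritic cells, gated on high class II and on Flt3, Ccl17, Xcr1, Clec9a or Ccl22, had 232 and 171 CPM, and classical monocytes, gated on Fcnb, Vcan and Thbs1, had 128 and 75.9 CPM. The ranges of these neighbours did not overlap, nor did those of classical monocytes and Nkg7+ CD8 T cells, the leading lymphoid type at 54.9 and 61.5 CPM. CD4 T cells held 29.0 and 25.3 CPM, and 46.0 and 39.6 CPM when cells with T cell markers and class II were kept. Those cells, 218 and 295 over all T cell types and set aside as mixed, had 133 and 91.4 CPM of Havcr2. They also had 58.5 and 46.5 CPM of Cd86, against 2.52 and 4.62 CPM in all T cells without a Foxp3 UMI. Their median depths were 12868.5 and 12217 UMIs, against 4593 and 4833 UMIs. The part of other cells in their Havcr2 level was not tested. Macrophages held 19.9 and 9.91 CPM, non-classical monocytes 23.5 and 5.02 CPM, and B cells 2.73 and 4.13 CPM. NK cells were near 0, with 0 and 1 UMI in the 199 and 205 cells rich in Prf1 and Gzma, and 0.632 and 1.02 CPM in the others. Havcr2 and Lag3 thus parted in the cytotoxic cells: both were present in Nkg7+ CD8 T cells, and Lag3 without Havcr2 in the NK cells. In dendritic cells 27 of 130 and 12 of 98 cells carried 5 or more Havcr2 UMIs and held 58.8% and 45.6% of the type's Havcr2 UMIs.

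Whether single Nkg7+ CD8 T cells carried more than 1 receptor was read at 1500 UMIs. All 3 of Lag3, Tigit and Havcr2 were detected in 5 of 995 and 9 of 1486 cells (0.503% and 0.606%), 2 of them in 6.43% and 4.91%, 1 in 34.2% and 26.2%, and none in 58.9% and 68.2%. Havcr2 was found in 10.5% (7.23% to 14.5%) and 14.8% (11.2% to 19.1%) of cells with a Lag3 UMI, against 6.44% (4.73% to 8.52%) and 7.31% (5.87% to 8.97%) of cells without. In library 2 these intervals were apart and in library 1 they overlapped. Tigit was found in 12.8% and 10.4% of cells with a Lag3 UMI and in 10.4% and 4.96% of cells without, again apart in library 2 only. Cells of 1 library share their source, so these shares are a description. In Rag1 or Dntt T cells of library 2, 65.0% had 1 receptor and 1 cell of 491 had 2. Dividing Nkg7+ CD8 T cells, 74 and 231 in number, had 217.5 and 182 CPM of Lag3, against 289 and 238 CPM in the rest, and 97.1 and 49.0 CPM of Tigit, against 70.2 and 46.5 CPM. The dividing cells were deeper, with medians of 10404.5 and 8684 UMIs against 4463 and 5150 UMIs.

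**Figure D3:**
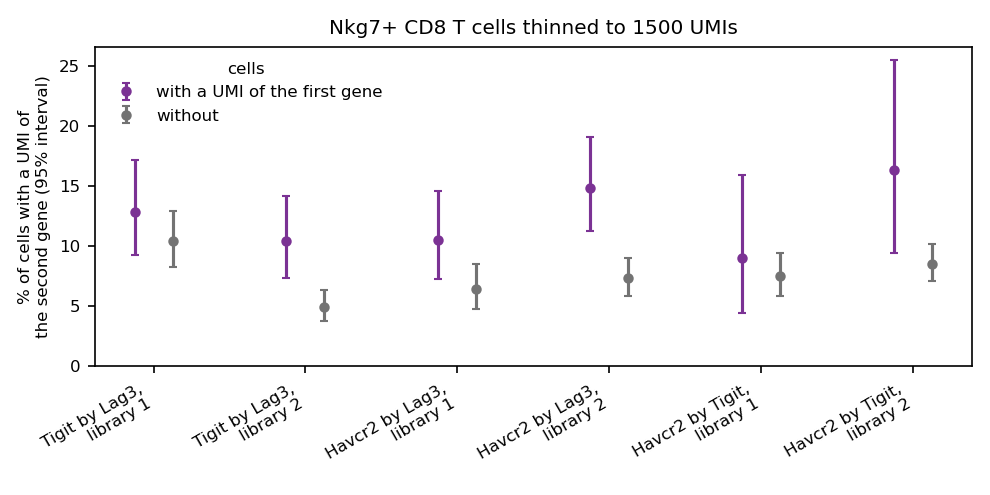
Share of Nkg7+ CD8 T cells, thinned to 1500 UMIs, with a UMI of a second receptor among cells with (purple) and without (grey) a UMI of the first, by library, with exact binomial 95% intervals. In library 2 Havcr2 was found in 14.8% of cells with and 7.31% of cells without a Lag3 UMI.

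Of the ligands, Cd274, which encodes PD-L1, was spread over lymphoid and myeloid types. The endothelial or fibroblast cells had 132 and 206 CPM, from 127 and 45 cells. Among leukocytes NK cells without high Prf1 and Gzma (79.4 and 64.1 CPM), neutrophils (85.7 and 51.2 CPM), non-classical monocytes (34.7 and 98.2 CPM) and Nkg7- CD8 T cells (51.9 and 73.8 CPM) led, with overlapping ranges, and the other T cell types and B cells followed down to 23.8 CPM. A gap then separated macrophages (6.69 and 13.7 CPM), conventional dendritic cells (5.90 and 13.9 CPM) and classical monocytes (6.15 and 12.4 CPM). These last 3 types, which present antigen or give rise to cells that do, had the lowest Cd274 of the 13. Macrophages of the cluster led by Prg4 and C6 (cluster 22, 41 and 86 cells) had more, 26.4 and 57.9 CPM. Those of the cluster led by C1qc and C1qa (cluster 3, 977 and 1036 cells) had 5.39 and 10.5 CPM. At 1500 UMIs a Cd274 UMI was found in 9.599% and 6.06% of neutrophils (13.8% and 11.4% unthinned, median depth 2248 and 2563 UMIs) and in 1.075% and 1.44% of classical monocytes (3.68% and 6.90% unthinned, median depth 7734 and 6904 UMIs).

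Neutrophils were not uniform for Cd274. Those of the cluster led by G0s2, Ifit3 and Ifit1bl (cluster 1), the last 2 being interferon-induced genes, had 133 and 89.95 CPM in libraries 1 and 2. Those of the cluster led by Retnlg and Mmp8, granule genes of young neutrophils (cluster 8), had 30.7 and 30.9 CPM. Those of the cluster led by Il1r2 (cluster 4) had 70.8 CPM in 2044 cells of library 1 and 11.3 CPM, 2 UMIs, in 70 cells of library 2. Cluster 4 held 54.9% of the neutrophils of library 1 and 4.43% of library 2, and cluster 8 held 10.7% and 51.0%. Pdcd1lg2, which encodes the other PD-1 ligand and is the next protein-coding gene after Cd274 in the RefSeq annotation of rat chromosome 1, did not share this pattern: it had 1.13 and 0.794 CPM in neutrophils and 24.0 and 29.7 CPM in T cells without a Foxp3 UMI.

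**Figure D4:**
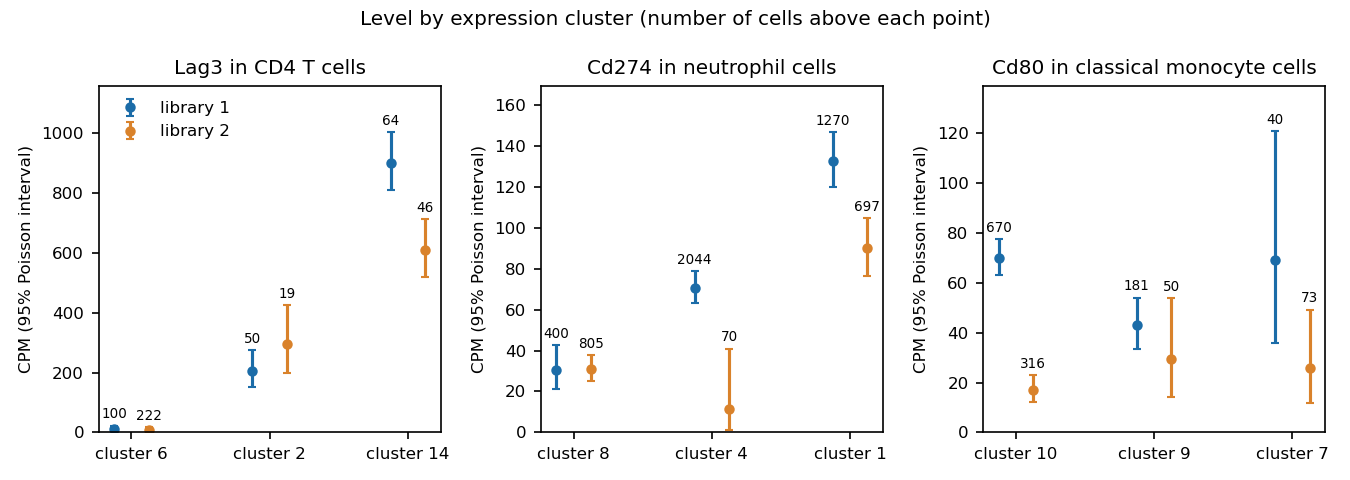
Level in CPM (points, with 95% Poisson intervals; cell numbers above) of Lag3 in CD4 T cells, Cd274 in neutrophils and Cd80 in classical monocytes, by expression cluster and library (colours). Lag3 in CD4 T cells ranges from under 10 CPM in cluster 6 to 901 CPM in cluster 14, and Cd274 in neutrophils is lowest in cluster 8 of library 1 and cluster 4 of library 2.

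Cd80, a ligand of CD28 and CTLA-4, was highest in a lymphocyte. Foxp3+ T cells had 169.6 and 159.9 CPM, against 13.7 and 10.99 CPM in all T cells without a Foxp3 UMI. The next types were non-classical monocytes at 55.0 and 38.9 CPM, classical monocytes at 63.2 and 22.01 CPM and conventional dendritic cells at 39.3 and 31.0 CPM, and their ranges overlapped each other but not that of Foxp3+ T cells. Within cluster 14 the T cells with a Foxp3 UMI had 185 and 205 CPM, those with neither Foxp3 nor type 17 UMIs 45.1 and 38.4 CPM, and the type 17 cells 12.7 CPM and 0 UMIs. In Foxp3+ T cells a Cd80 UMI was found in 48.4% and 46.6% of 62 and 116 cells (9.68% and 15.5% at 1500 UMIs), and cells with 5 or more Cd80 UMIs carried 19.4% and 23.8% of the UMIs. Class II transcripts, RT1-Da and RT1-Ba summed, were at 57.4 and 97.0 CPM in the Foxp3+ T cells and at 22023 and 23676 CPM in conventional dendritic cells. NK cells had 0.421 to 3.43 CPM of Cd80 and neutrophils 1.81 and 0.198 CPM.

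Cd86, the other ligand of CD28 and CTLA-4, followed antigen presentation. Conventional dendritic cells led with 128 and 116 CPM, a range apart from that of macrophages at 52.6 and 53.8 CPM. Non-classical monocytes (55.5 and 43.1 CPM) and classical monocytes (47.5 and 38.2 CPM) overlapped with their neighbours, and B cells had 35.9 and 32.8 CPM. The T cell types, NK cells and neutrophils among the 13 types stayed under 7 CPM, except Foxp3+ T cells of library 2, with 28.8 CPM (18.1 to 43.7) against 2.73 CPM (0.0693 to 15.2) in library 1, from 22 UMIs and 1 UMI. Summed B cell markers were also higher in those Foxp3+ T cells, at 40.6 CPM in library 2 against 10.9 CPM in library 1, and their part in the Cd86 level was not tested. B cells thus carried Cd86 with little Cd80 (4.68 and 4.69 CPM), and Foxp3+ T cells the reverse in library 1. Within macrophages at 1500 UMIs, Cd80 was found in 3.10% and 2.33% of cells with a Cd86 UMI and in 2.63% and 2.18% of cells without, with overlapping intervals.

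The sequences before the ligand genes are shown because Cd274 is known as an interferon-induced gene and its level in neutrophils was highest in the cluster with Ifit3 and Ifit1bl, while Cd80 has a pair of annotated starts. Each window runs from 250 bases before to 50 bases after a start, on the gene's strand, from RefSeq (GRCr8); a window was found for Pdcd1, Tigit, Havcr2, Cd274, Cd80 and Cd86. Capitals mark a match on either strand to TTCNNNGAA, the site of STAT factors, or to GAAA, any 2 bases and GAAA again, a site of interferon-regulated factors; the motifs could overlap, and no overlap was found in the windows printed.
Cd274, chr1:236529982-236530281, plus strand: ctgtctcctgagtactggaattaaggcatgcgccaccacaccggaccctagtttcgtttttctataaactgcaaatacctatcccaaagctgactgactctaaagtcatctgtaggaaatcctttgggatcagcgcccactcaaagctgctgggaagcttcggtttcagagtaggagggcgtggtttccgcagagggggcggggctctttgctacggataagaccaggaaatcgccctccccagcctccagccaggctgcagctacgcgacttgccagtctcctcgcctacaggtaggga
Cd80, first start, chr11:75797491-75797790, minus strand: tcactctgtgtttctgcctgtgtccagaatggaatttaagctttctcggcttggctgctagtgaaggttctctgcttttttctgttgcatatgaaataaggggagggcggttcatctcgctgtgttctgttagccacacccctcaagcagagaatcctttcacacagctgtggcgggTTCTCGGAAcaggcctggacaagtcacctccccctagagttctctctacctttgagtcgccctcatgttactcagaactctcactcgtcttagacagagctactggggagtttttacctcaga
Cd80, second start, chr11:75797207-75797506, minus strand: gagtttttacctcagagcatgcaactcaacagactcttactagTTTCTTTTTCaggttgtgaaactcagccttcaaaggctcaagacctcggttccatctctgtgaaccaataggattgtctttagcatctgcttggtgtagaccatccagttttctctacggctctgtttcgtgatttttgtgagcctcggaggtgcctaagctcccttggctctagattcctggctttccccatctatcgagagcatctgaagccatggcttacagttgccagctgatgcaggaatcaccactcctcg
The Cd274 window held neither motif, the first Cd80 window held 1 match to the STAT motif, and the second held 1 match to the interferon motif. Among the windows of the other genes, only Havcr2 had a match, 1 to the STAT motif. Of all 33469 windows in the table, 8.87% held the STAT motif and 3.92% the interferon motif, and a match is a match of letters only.

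Differences between the libraries were read in 10 types with at least 200 cells in each, as the log2 ratio of (CPM + 10), library 2 over library 1, for genes of 20 CPM or more in either library. Of 30 such pairs of gene and type, 9 were 1.5-fold or more lower in library 2 and 1 was higher, and the counting intervals of all 10 were apart. The shares below are those of all genes past the same fold in the same type, and the direction has no meaning for treatment. Lag3 was lower in 3 of its 5 pairs, Tigit in 2 of 5, Havcr2 in 2 of 5, Cd80 in 1 of 3, Cd86 in 0 of 4 and Cd274 in 1 of 8, with 1 higher.

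In CD4 T cells, Lag3 had a log2 ratio of -1.19 (-1.40 to -0.98) and Tigit one of -0.98 (-1.33 to -0.64), and 3 other members there were within 1.5-fold. That makes 2 of 5 members lower and 0 higher, where 3.85% of all genes were lower and 2.35% higher. Averaging the clusters with equal weights gave -0.55 and -0.53, within 1.5-fold. In other T cells Lag3 alone of 4 members was lower, at -0.60 (-0.76 to -0.43), where 1.78% of genes were lower and 1.22% higher. That call was lost under 5 alternatives, with values from -0.33 (clusters in place of gates) to -0.56 (doublets kept). With a pseudocount of 1 CPM, Tigit (-0.64) and Havcr2 (-0.73) were past the fold as well. So was Havcr2 (-0.65) when cells with T cell markers and class II were kept. In Nkg7- CD8 T cells Tigit alone of 3 was lower, at -0.95 (-1.43 to -0.47), from 31 and 29 UMIs, where 2.32% of genes were lower and 3.15% higher. Lag3 in those cells was at 0.05, but at -0.65, past the fold, as a mean over clusters. Nkg7+ CD8 T cells had none of 4 members past the fold, where 1.21% of genes were lower and 1.19% higher; the nearest was Tigit at -0.56 (-0.72 to -0.39), which was past the fold with a pseudocount of 1 CPM (-0.64) and as a mean over clusters (-0.60). NK cells without high Prf1 and Gzma had Lag3 lower, at -0.59 (-0.80 to -0.39), of 3 members, where 1.31% of genes were lower and 1.9% higher; it was within 1.5-fold after TMM scaling (-0.56) and as a mean over clusters (-0.45).

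In classical monocytes Cd80 was lower, at -1.19 (-1.44 to -0.94), and so was Havcr2, at -0.68 (-0.86 to -0.50), while Cd86 was at -0.25 (-0.48 to -0.02). That is 2 of 3 members, where 2.76% of all genes were lower and 5.52% higher. Cd80 was lower in each of the 3 clusters that hold most of these cells, with 70.1 and 17.1 CPM in the cluster led by Fcnb and Thbs1 (cluster 10, 670 and 316 cells). Intervals overlapped in the other clusters, of 50 and 73 cells in library 2.

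In non-classical monocytes, gated on Adgre4, Eno3 and Spn, Cd274 was 2.83-fold higher in library 2 by CPM, with a log2 ratio of 1.28 (0.97 to 1.58), from 65 and 333 UMIs. Havcr2 was lower, at -1.16 (-1.53 to -0.78), from 44 and 17 UMIs; it was -0.53 with clusters in place of marker gates. Cd80 and Cd86, at -0.41 and -0.30, were within 1.5-fold. So 1 of 4 members was higher and 1 lower, where 3.56% of all genes were higher and 3.67% lower. Cd80 was past the fold with clusters in place of marker gates (-0.61) and as a mean over clusters (-0.60). Summed RT1-Da and RT1-Ba stood at 1738 and 422 CPM in these cells and summed T cell markers at 4.80 and 19.2 CPM, and the part of other cells in these ratios was not tested. In neutrophils Cd274 was lower, at -0.64 (-0.82 to -0.47), the only member tested there, where 5.36% of genes were lower and 4% higher; it was within 1.5-fold, at -0.55, after TMM scaling. B cells had 2 members and macrophages 1 member tested and none past the fold, where 0.693% and 0.944% of genes were lower and 0.924% and 2.76% higher. Cd86 in macrophages was at 0.03 (-0.11 to 0.16). Havcr2 in macrophages, at 19.9 and 9.91 CPM, just missed the minimum of 20 CPM, and its log2 ratio was -0.59 (-0.77 to -0.41).

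**Figure D5:**
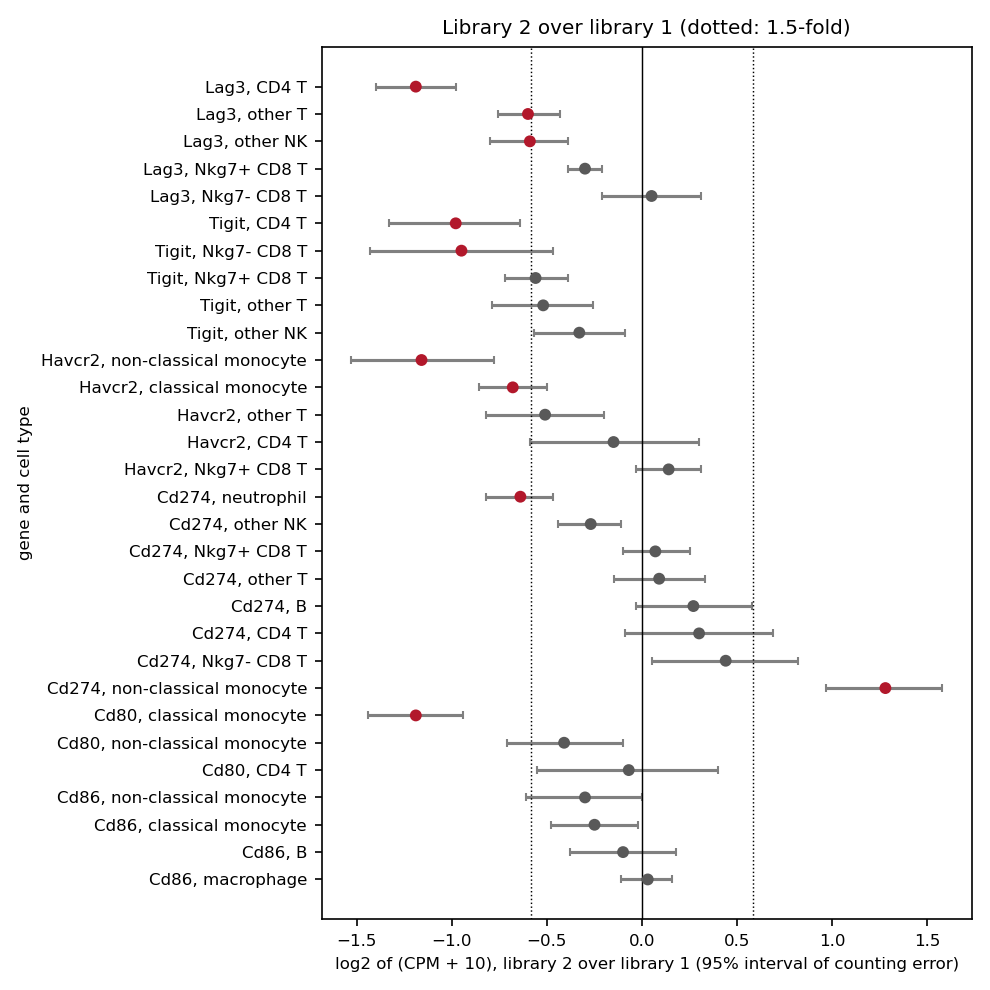
Log2 ratio of (CPM + 10), library 2 over library 1, with 95% intervals of counting error (bars), for the 30 pairs of gene and cell type that reached 20 CPM. Red points are past 1.5-fold (dotted lines): 9 lie to the left and Cd274 in non-classical monocytes lies alone to the right at 1.28.

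Genes of the same pathways were read from 5 lists. Of 14 measured inhibitory receptors, 8 reached 20 CPM in CD4 T cells, of which 3 were lower in library 2 and 0 higher, where 3.85% of all genes were lower and 2.35% higher. Their median log2 ratio was -0.44 against -0.07 over all genes; the third beside Lag3 and Tigit was Cd96, a receptor of the TIGIT family, with 94.3 and 44.1 CPM. In Nkg7+ CD8 T cells 9 were measured at that level and 0 were past the fold (1.21% of all genes lower and 1.19% higher), with a median of -0.25 against -0.02. The leading ones there were Lag3, Cd96 (268.5 and 179 CPM), Cd5, which damps T cell receptor signals (193.5 and 161 CPM), and Vsir, which encodes the checkpoint protein VISTA (148 and 124 CPM). Costimulatory receptors of Nkg7+ CD8 T cells were led by Cd2 (1382 and 1368 CPM), Cd27 (318 and 234 CPM), Cd226, the activating counterpart of TIGIT (91.8 and 124 CPM), and Cd28, the activating receptor of the B7 ligands (97.3 and 103.5 CPM). Of 9 such receptors there, 1 was lower and 0 higher, against the same 1.21% and 1.19% of all genes: Icos, an inducible relative of Cd28, with 111 and 67.0 CPM.

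Among 26 measured ligands, 13 reached 20 CPM in non-classical monocytes, where 6 were lower and 1 higher in library 2, against 3.67% lower and 3.56% higher of all genes, with a median of -0.43 against 0.03. The higher one was Cd274. The lower ones were Lgals3, at 547 and 256 CPM, and 5 genes of the class II pathway, Cd74 and the listed RT1 genes. Among these were RT1-Da at 1225 and 284 CPM and RT1-Bb at 55.0 and 19.8 CPM. Class II molecules, encoded by the RT1 genes, are ligands of LAG-3. In conventional dendritic cells the list was led by Cd74, the class II invariant chain (18708 and 21699 CPM), and RT1-Da, RT1-Db1 and RT1-Ba. Of 18 genes of stimulated T cells, 14 were read in Nkg7+ CD8 T cells and 0 were past the fold (1.21% of all genes lower and 1.19% higher). In the lead were Nr4a2 (281 and 368 CPM), Nr4a1 (199.9 and 293 CPM) and Nr4a3 (177 and 185 CPM), transcription factors induced by receptor signals. The phosphatase gene Ptpn6 (241 and 205 CPM) was also among the leading genes. The same list had 4 lower and 0 higher of 14 in CD4 T cells, with a median of -0.19 against -0.07 and with 3.85% lower and 2.35% higher of all genes: the phosphatase gene Ptpn11 (122 and 70.5 CPM) and the transcription regulators Tbx21 (31.9 and 17.2 CPM), Prdm1 (70.4 and 37.1 CPM) and Id2 (67.5 and 39.8 CPM). Of the interferon gamma response list, 10 genes were read in neutrophils, with 2 higher and 0 lower in library 2, against 4% higher and 5.36% lower of all genes, and a median of 0.18 against -0.11. From 1 to 2 genes of this list, of 9 or 10 read, were higher in 9 of the 10 types. In those types 1.19% (Nkg7+ CD8 T cells) to 5.52% (classical monocytes) of all genes were higher. CD4 T cells had 1 gene of the list higher and 2 lower, and B cells had 0 past the fold. In neutrophils the higher ones were Irf7 (281 and 462 CPM) and Irf1 (166 and 257 CPM), interferon-regulated transcription factors. The receptor gene Ifngr1 (444 and 446 CPM) and Stat3 (217 and 246 CPM) were also among the leading genes there. Cd274 was lower in the same cells of library 2.

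Similarity of pattern was measured as the Pearson correlation of log2(CPM + 10) over 26 profiles, 13 types in 2 libraries, among 7458 genes. The profiles share libraries, and types of 1 lineage are alike, so the values describe and have no p. Closest to Lag3 were Gimap5 (0.97), Lat (0.96) and Gimap8 (0.96), and to Tigit Cxcr6 (0.97), Lime1 (0.95) and Sytl1 (0.95). Cd86 was most like Ly86 (0.94), Erp29 (0.94) and Cd74 (0.93). The likeness was weaker for Havcr2, with Manf (0.82), Ppa1 (0.82) and Adprh (0.81), for Cd274, with Rsrp1 (0.86), Clk3 (0.86) and Gskip (0.84), and for Cd80, with Asna1 (0.83), Zc3h12d (0.83) and Cfap36 (0.81). Among the members themselves Lag3 and Tigit had the highest correlation (0.86), Cd80 and Cd86 had 0.46, and Cd274 ran opposite to Cd86 (-0.72) and to Havcr2 (-0.62). The pair that shares receptors, Cd80 and Cd86, was thus less alike across these 13 types than Lag3 and Tigit. The 13 types leave out the Rag1 or Dntt T cells, which had 560.5 CPM of Lag3 and 6.55 CPM of Tigit in library 2.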

How the data were processed

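The deposited matrix gives raw UMI counts for each gene in each barcode; its header names Cell Ranger 4.0.0. The authors' genome build is not given in the sources used here. A deposited table of library names shares 111 barcodes with the matrix under the same suffix, too few to tie suffixes to groups. Rows of 1 symbol were summed. Cells with under 200 genes or over 20% mitochondrial UMIs (315 and 235) and doublets called by scrublet in scanpy 1.11.5 (634 and 997; 4.54% and 6.46%) were left out. Types were gated per cell, mostly at 3 UMIs of the marker genes, with cut-offs set after the data were seen; 513 cells with T cell markers and 0.2% or more class II UMIs were set aside as mixed. Clusters (Leiden, resolution 1) were made without the 7 genes and serve as an alternative. CPM carry exact Poisson and shares exact binomial 95% intervals. The ratio code was tested on simulated data, and TMM factors came from edgeR 4.0.16. The genes and lists were chosen with earlier results of these data known. All 7 genes are named, with up to 4 genes of highest CPM per list and the 3 most similar genes; Ctla4, Pdcd1lg2, Irf7 and markers beside a result were named after their values were seen.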

Additional observations from a re-analysis of the deposited data

Results flagged for a closer look

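Cd274 had opposite directions in non-classical monocytes and neutrophils: its log2 ratio of library 2 over library 1 was 1.28 in the former and -0.64 in the latter, where it was within 1.5-fold after TMM scaling (-0.55). Macrophages (6.69 and 13.7 CPM) and classical monocytes (6.15 and 12.4 CPM), below the minimum of 20 CPM, were higher in library 2. Their counting intervals were apart. Within classical monocytes, intervals overlapped in cluster 10 (3.94 and 6.51 CPM), cluster 9 (8.95 and 8.78 CPM) and cluster 7 (11.5 and 43.3 CPM). Cluster 7, mostly non-classical monocytes, held 40 and 73 of these cells. In macrophages intervals were apart in cluster 3 (5.39 and 10.5 CPM) and overlapped in cluster 22 (26.4 and 57.9 CPM). Cells of every kind came from 1 library on each side, so the difference between the cell types was not tested.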

How the results depend on the processing

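The count of gene and type pairs higher in library 2 was 1 under all 8 alternatives, and no ratio changed sign among the 10 called pairs. The count lower in library 2, 9 as reported, was 5 with clusters in place of marker gates, where 7 of the 10 pairs had a value and 5 kept their call; the cause was not tested. Under the others it ranged from 7 (TMM) to 12 (pseudocount of 1 CPM). Of the 10 calls, 10 were kept without a minimum CPM, with a pseudocount of 1 CPM and with a stricter gate, 9 with doublets kept, 7 with TMM and 5 as a mean over clusters. With cells that have T or NK markers and class II left in, an alternative added after seeing the data, 9 were kept. The calls lost with TMM were Lag3 in NK cells (-0.56), Lag3 in other T cells (-0.53) and Cd274 in neutrophils (-0.55). Those lost as a mean over clusters were Lag3 in CD4 T, NK and other T cells (-0.55, -0.45 and -0.50), Tigit in CD4 T cells (-0.53) and Havcr2 in non-classical monocytes (-0.54). TMM moved the median of all ratios by over 0.1 in neutrophils only, by 0.11. Shares of cells depend on depth: 73 of 74 moved beyond their interval when unthinned. No paired analysis was possible because the result comes from no test and each group has 1 sample.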
